A study of Rattus norvegicus with 4 samples.

Results

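The genes described here code for receptors of adenosine and of ATP and its relatives, the purine receptors, which are among the classic receptors of PC12, a cell line isolated from a rat pheochromocytoma. The set was given by name and consists of 10 genes, namely Adora1, Adora2a, Adora2b, P2rx2, P2rx3, P2rx4, P2rx7, P2ry1, P2ry2 and P2ry12. Of these, 9 were found by name among the 25810 genes of the count files, and P2rx3 was not. RNA was sequenced from 2 clones of the same line, for which the labels name no treatment: wtPC12, labelled wild type with low REST, and hrPC12, labelled high REST and formerly called PC12-27, with 2 libraries per clone. REST is a repressor of neuronal genes, and the comparison asks which genes differ between a clone with little and a clone with much of it. Each REST level is represented by 1 clone, and what REST does cannot be told apart from whatever else separates the pair. The labels do not say whether the 2 libraries of a clone come from separate cultures, and p values then measure only the spread between these libraries.

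Purine receptors fall into 3 families. Adenosine receptors are coupled to G proteins that either stimulate adenylyl cyclase (A2A, A2B) or inhibit it (A1, A3). P2X receptors are ion channels that open when ATP binds, built of 3 subunits, and P2Y receptors are G protein-coupled receptors of ATP, ADP, UTP or UDP. In chromaffin cells, from which pheochromocytomas arise, ATP is stored with the catecholamines and released with them, and it acts on P2X and P2Y receptors of the same and of neighbouring cells. Enzymes at the cell surface break ATP down to adenosine, which is then taken up by nucleoside transporters.

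The reads counted on genes ranged from 20975027 to 27246502 per library, and values are given below as normalized counts, that is, reads scaled by the library sizes and TMM factors. Rest itself had 43.0 and 132 normalized counts in wtPC12 and 964 and 915 in hrPC12, and its log2 FC (hrPC12/wtPC12) was 3.42 (standard error, SE, 0.57, quasi-likelihood test, edgeR adjusted p = 0.0115), which misses the limit of 0.01 used below. Leaving out wtPC12 replicate 1 gave 2.80 and leaving out wtPC12 replicate 2 gave 4.44. Rest passed both thresholds with RLE factors (edgeR adjusted p = 0.00207), library totals alone (edgeR adjusted p = 0.00356) and in DESeq2 (adjusted p = 1.89e-10), among others. It did not pass with the filter filterByExpr (edgeR adjusted p = 0.0109) or in the stricter test glmTreat (edgeR adjusted p = 0.103). Of 10 markers of chromaffin cells 7 were tested and 5, Th (log2 FC −3.08), Dbh (−5.34), Phox2a (−5.46), Slc18a1 (−9.90) and Chgb (−10.22), were lower in hrPC12, past both thresholds given below. The other tested markers did not pass, Ddc with a log2 FC of 0.27 and Slc18a2 with −0.10. By the same thresholds 5.46% of all 13726 tested genes were lower and 4.84% higher. Th still had 18729 and 21001 normalized counts in hrPC12, and Chga and Pnmt were not matched by symbol. Since several P2Y receptors are also known from macrophages and other leukocytes, 12 markers of these cells were followed. Of these, 11 were in the files and 8, Ptprc, Aif1 and Itgam among them, had at most 4 reads in any library. The remaining 3, Cd68, Fcer1g and Cd14, had 9 to 28 reads in the wtPC12 libraries, and the summed level of the list was 60.5 and 53.6 normalized counts in wtPC12 and 442 and 517 in hrPC12, carried by Cd14 and Cd68.

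Of the 10 receptor genes, 7 passed the filter on low counts, and 4 of these 7, Adora2a, P2rx2, P2ry2 and P2ry12, were lower in hrPC12 where the adjusted p was below 0.01 and the log2 FC beyond 2, the thresholds of the study. Among all 13726 tested genes 5.46% were lower by this rule and 4.84% higher, or 10.3% in either direction, while the adjusted p alone gave 7.14% lower and 5.94% higher. The set was chosen with earlier results of these data known, so these shares are given as a description. No receptor gene of the set was higher past both thresholds in edgeR's test or in DESeq2. At an unadjusted p under 0.05 in edgeR's test 1, Adora2b, was higher, as were 3246 of all 13726 tested genes. The median log2 FC of the 7 tested genes was −2.50, and that of all tested genes 0.06. In 6 of the 7 the libraries of the clones did not overlap, 4 of them lower and 2 higher in hrPC12, where this was so for 73.5% of all tested genes, 35.6% lower and 37.9% higher. Without wtPC12 replicate 2 edgeR called 0 of the set and 0 of all tested genes, with an unadjusted p under 0.05 for 4 of the set in the lower direction, and DESeq2 on the same 3 libraries called 4. In RNA of whole cultures, fewer cells that express a gene and less RNA per cell cannot be told apart.

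**Figure D1:**
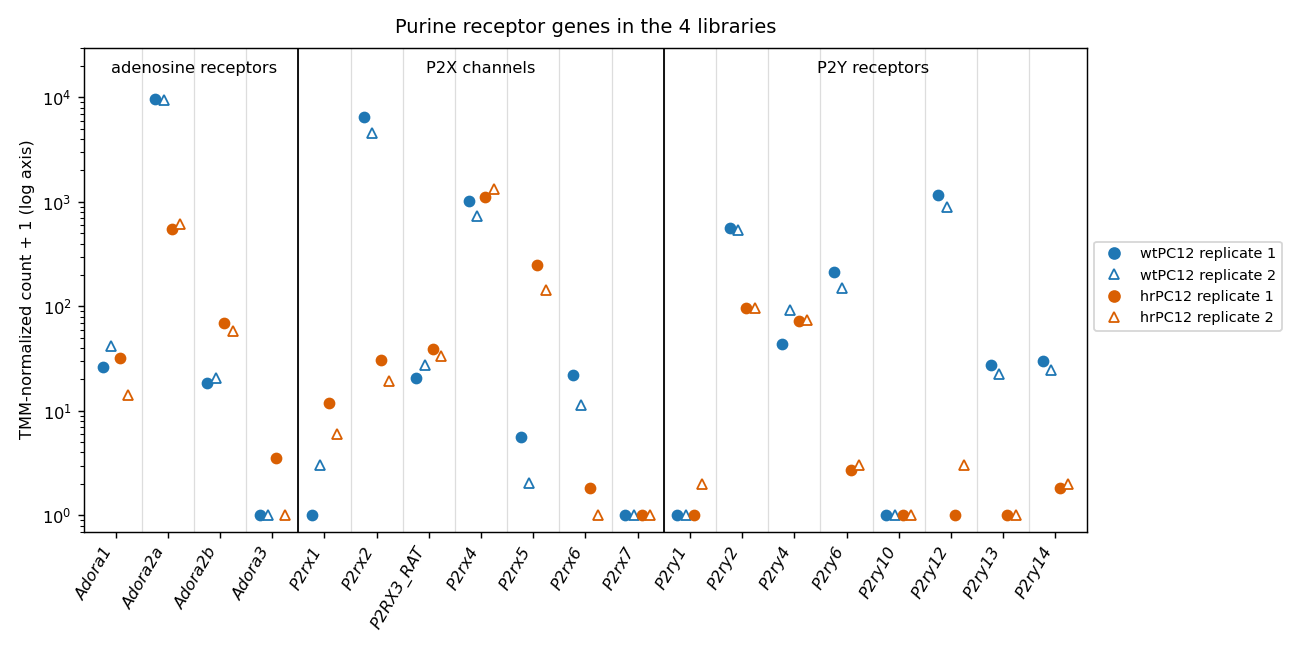
TMM-normalized count plus 1 (log axis) of the purine receptor genes in the 4 libraries, blue for wtPC12 and orange for hrPC12, filled circles for replicate 1 and open triangles for replicate 2. The wtPC12 points of Adora2a, P2rx2, P2ry2, P2ry6 and P2ry12 lie far above the hrPC12 points, and so do those of P2rx6, P2ry13 and P2ry14, at few reads. The wtPC12 points of P2rx5 lie far below the hrPC12 points, and those of P2rx4 are close to them.

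Of the 3 tested adenosine receptor genes, 1 was lower past both thresholds and 2 did not pass. Adora2a codes for the A2A receptor, the adenosine receptor through which PC12 cells are known to raise cyclic AMP. Its libraries held 9663 and 9499 normalized counts for wtPC12 and 548 and 613 for hrPC12. The libraries of each clone were close to each other, and hrPC12 retained 6.06% of the wtPC12 mean. The log2 FC was −4.04 (SE 0.18, edgeR adjusted p = 0.000376, by the method of Benjamini and Hochberg), or a level 16.5-fold higher in wtPC12.

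Adora2b, the gene of the A2B receptor, which couples to the same cyclase but needs more adenosine, had 17.4 and 19.6 normalized counts in wtPC12 and 67.7 and 57.7 in hrPC12. Both hrPC12 libraries lay above both wtPC12 libraries. The log2 FC was 1.75 (SE 0.39, edgeR adjusted p = 0.0260), which passes neither threshold. Adora1, the gene of the A1 receptor that inhibits the cyclase, had 25.6 and 41.2 normalized counts in wtPC12 and 31.3 and 13.2 in hrPC12, and the clones overlapped. Its log2 FC of −0.58 (SE 0.58, edgeR adjusted p = 0.469) lay between −1.34 and −0.15 with each library left out in turn. Adora3, the remaining adenosine receptor gene, had 3 reads in hrPC12 replicate 1 and 0 in the other libraries, which is at the limit of 3 reads that a count of 0 allows. Limits and intervals of this kind cover counting error only, as PCR copies were not told apart by molecular identifiers.

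Among the tested genes of the ATP-gated channels named in the set, 1 was lower past both thresholds. P2rx2, which codes for the P2X2 subunit first cloned from PC12 cells, had 6497 and 4562 normalized counts in wtPC12 and 29.6 and 18.2 in hrPC12. The wtPC12 libraries differed by more than those of Adora2a, yet both were far above either hrPC12 library. The log2 FC was −7.83 (SE 0.38, edgeR adjusted p = 0.000427), with 0.433% of the wtPC12 mean left in hrPC12, in 35 and 18 reads. With each library left out in turn the log2 FC ranged from −8.24 to −7.58.

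P2rx4, a subunit expressed in many tissues and also found in membranes of lysosomes, had 1011 and 725 normalized counts in wtPC12 and 1120.0 and 1314 in hrPC12. Both hrPC12 libraries were higher. The log2 FC of P2rx4 was 0.49 (SE 0.25, edgeR adjusted p = 0.187), close to the log2 ratio of 0.48 between the wtPC12 libraries. P2rx7, a subunit best known from macrophages, had 0 reads in all 4 libraries. A row carrying P2RX3_RAT, the form in which UniProt names the rat P2X3 protein, is listed where P2rx3 is not. It had 19.8 and 26.8 normalized counts in wtPC12 and 38.1 and 32.4 in hrPC12, with a log2 FC of 0.59 (SE 0.42, edgeR adjusted p = 0.307), and was not counted in the set. In the annotation of the current rat assembly P2rx3 overlaps Ssrp1, a gene with 7505 to 15345 normalized counts per library, and without strand the reads of overlapping genes cannot be told apart.

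Both tested P2Y receptor genes of the set were lower in hrPC12 past both thresholds. P2ry12, which codes for an ADP receptor that inhibits adenylyl cyclase, best known as the target of antithrombotic drugs on platelets, had 1170.2 and 899 normalized counts in wtPC12, from 1006 and 873 reads. In hrPC12 it had 0 and 2 reads. The wtPC12 level was 1110-fold higher, with a 95% interval of 308 to 9200 for counting error alone (exact, conditional on the total). The fitted log2 FC was −9.94 (SE 0.72, edgeR adjusted p = 0.001), and it moved to −8.91 without hrPC12 replicate 1 and to −13.04 without hrPC12 replicate 2, the library that holds the 2 reads. In the wtPC12 libraries that hold the P2ry12 reads, the leukocyte markers Cd68, Fcer1g and Cd14 had 20 and 28, 15 and 9, and 10 and 9 reads, and Ptprc had 0, while the summed level of the list was lower there than in hrPC12. Their part in the result was not tested.

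P2ry2 codes for a receptor that ATP and UTP activate alike and that raises cytosolic calcium through phospholipase C. It had 560 and 535 normalized counts in wtPC12 and 96.5 and 96.1 in hrPC12. Both pairs of libraries were close, and hrPC12 retained 17.6% of the wtPC12 mean. The log2 FC was −2.50 (SE 0.26, edgeR adjusted p = 0.00285), or 5.67-fold higher in wtPC12. Under glmTreat of edgeR, where the change itself must exceed the threshold of 2 (log2), P2ry2 was the only one of the 4 that did not pass (edgeR adjusted p = 0.146). P2ry1, another ADP receptor gene, had a single read, in hrPC12 replicate 2, and was not tested.

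Promoter windows from RefSeq (assembly GRCr8, 250 bases before to 50 after a start) were at hand for 7 genes of the set, and not for Adora2a, P2rx2 and P2ry12. The bases upstream of the annotated gene are shown for P2ry2 and Adora2b, a pair with fitted changes of opposite sign of which P2ry2 passed both thresholds. Capitals mark the hexamer GGGCGG on either strand (CCGCCC where it lies on the other), the core of the GC box that Sp1 is known to bind.
P2ry2, chr1:164779579-164779738, minus strand: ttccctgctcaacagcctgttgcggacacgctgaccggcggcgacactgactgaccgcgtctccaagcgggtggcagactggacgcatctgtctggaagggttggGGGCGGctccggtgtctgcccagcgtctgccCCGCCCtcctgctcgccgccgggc
Adora2b, chr10:47439462-47439711, plus strand: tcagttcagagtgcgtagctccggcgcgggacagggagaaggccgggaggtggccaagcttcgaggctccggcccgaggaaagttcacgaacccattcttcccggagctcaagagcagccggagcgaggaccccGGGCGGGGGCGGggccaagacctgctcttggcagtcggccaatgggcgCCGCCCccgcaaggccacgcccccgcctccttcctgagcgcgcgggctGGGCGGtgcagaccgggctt
The P2ry2 stretch of 160 bases held 2 such hexamers and was 70.0% G and C, and the Adora2b stretch of 250 bases held 4 and was 71.2% G and C. Over the whole windows, GGGCGG on either strand occurred in 5 of the 15 windows of receptor genes (Adora2b, P2rx3, P2rx7, P2ry1 and P2ry2) and in 33.1% of all 33469 promoters of the table. The letters TTCAGCACC from the left arm of the RE1 element that REST is known to bind were in none of the 15 windows and in 0.356% of all promoters, both strands searched. GGACAG, the core of its right arm, was in 7 of the 15, those of Adora1, Adora2b, Adora3, P2rx1, P2rx6, P2ry4 and P2ry10, and in 21.7% of all promoters, and is not set in capitals above. A longer stretch of the right arm, which includes this core, was in 0 of the 15 windows and in 0.131% of all promoters. Of the windows with the core, those of Adora1, P2rx6, P2ry4 and P2ry10 held 0 bases upstream of the annotated gene. Whether the core is more frequent in the receptor windows than in all promoters was not tested. These sequences describe the windows only, since no match says only that these letters are not there.

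A further 9 receptor genes, all of them purine receptors but P2ry10, a lysophospholipid receptor gene of the P2Y sequence group, were followed for comparison, as a list drawn up with earlier results of these libraries known. Of the 5 that were tested, P2ry6 and P2ry14 were lower and P2rx5 was higher in hrPC12 past both thresholds. Over all tested genes 5.46% were lower and 4.84% higher by this rule. The median of the 5 log2 FC values was −4.66. P2ry6, the gene of a UDP receptor, had 214 and 149 normalized counts in wtPC12 and 1.69 and 2.02 in hrPC12, from 2 reads in each hrPC12 library. Its log2 FC was −6.53 (SE 0.52, edgeR adjusted p = 0.00124). P2ry14, the gene of a UDP-glucose receptor, had 25 and 23 reads in wtPC12 and 1 in each hrPC12 library, a level 28.4-fold higher in wtPC12 with a 95% interval of 7.46 to 242 for counting error. P2ry13, the gene of a further ADP receptor, had 23 and 21 reads in wtPC12 and 0 in both hrPC12 libraries and was at least 8.68-fold lower in hrPC12, computed with 3 reads in each library. It was left out of the test by the requirement of reads in both clones, and passed both thresholds when every gene with at least 1 read was tested (edgeR adjusted p = 0.00277).

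P2rx5 was the one purine receptor gene that was higher in hrPC12 past both thresholds. It codes for a channel subunit known from muscle, among other tissues, and had 4 and 1 reads in wtPC12 against 290 and 142 in hrPC12, or 4.65 and 1.03 against 246 and 144 normalized counts. Both hrPC12 libraries were far above the wtPC12 libraries, and they differed from each other. The log2 FC was 6.08 (SE 0.71, edgeR adjusted p = 0.00384), 5.64 without hrPC12 replicate 1, 7.37 without wtPC12 replicate 1 and 5.35 without wtPC12 replicate 2, where its adjusted p was 0.0314. The 6 neighbouring genes of P2rx5 had a median log2 ratio of hrPC12 replicate 1 to replicate 2 of 0.735, and those of P2rx1 and P2rx6 of 0.776 and 0.774. P2rx1 and P2rx5 lie on chromosome 10 with 4 protein-coding genes between them, so they share neighbours and their medians describe the same stretch. Taken singly, 19.5% of the genes with such a ratio were above 0.4. How often a median of 6 neighbours exceeds 0.4 over all genes was not computed. Around the other purine receptor genes the median of the neighbours lay between −0.167 and 0.34, so that none of the set lay in a stretch with a median above 0.4. A gene's own ratio is not part of its median. It was 1.25 for Adora1, from 37 and 13 reads, and 0.70 for P2rx2, from 35 and 18 reads. For P2rx5 it was 0.77, from 290 and 142 reads. For Adora2a, Adora2b, P2rx4 and P2ry2 it lay between −0.23 and 0.23. The part of such stretches and ratios in the result was not tested.

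P2rx1 had 0 and 2 reads in wtPC12 and 13 and 5 in hrPC12, a ratio of 7.59 with a 95% interval of 1.82 to 67.5 for counting error, and its mean was under the filter. P2rx6, whose product is known as a partner of other P2X subunits, had 18 and 10 reads in wtPC12 and 1 and 0 in hrPC12, a ratio of 33.2 with a 95% interval of 5.49 to 1360, and its adjusted p was 0.0234 in edgeR's test. P2ry4, the gene of a UTP receptor, had 43.0 and 91.7 normalized counts in wtPC12 and 71.1 and 72.9 in hrPC12, and its log2 FC of 0.09 (SE 0.46) turned to −0.38 without wtPC12 replicate 1. P2ry10 had 0 reads. Over the set and these 9 genes together, 12 had more than 3 reads in both wtPC12 libraries, 9 in both hrPC12 libraries and 7 in all 4.

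**Figure D2:**
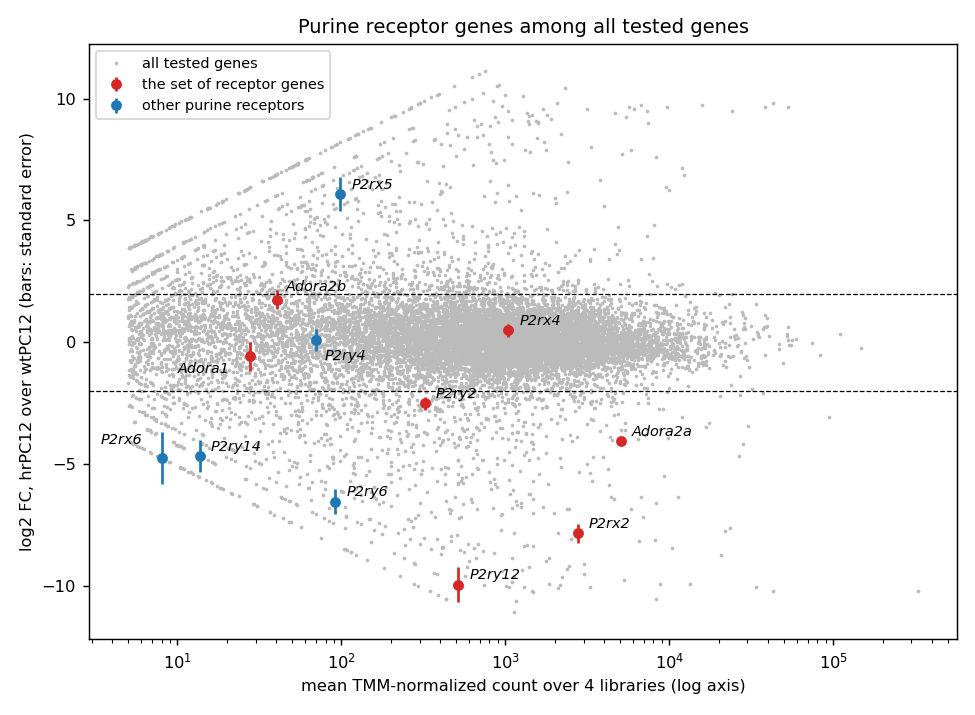
Log2 FC (hrPC12 over wtPC12) against the mean TMM-normalized count over the 4 libraries (log axis) for all 13726 tested genes in grey, with the genes of the set in red, the other purine receptor genes in blue, and bars for the standard error; dashed lines mark a log2 FC of 2 in either direction. P2ry12 (−9.94) and P2rx2 (−7.83) lie near the lower edge of the cloud, P2rx5 (6.08) lies above the bulk of the genes, and P2rx4, P2ry4 and Adora1 lie between the dashed lines.

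Several receptor genes are neighbours on the rat chromosomes, in the gene order of assembly GRCr8, which is not the build of the counts. P2ry6 and P2ry2 follow each other on chromosome 1 with 0 protein-coding genes between them, and both were lower in hrPC12. Of their neighbours, chosen by position, those in the count files did not pass both thresholds. Fchsd2, which overlaps P2ry2, had a log2 FC of −0.56 (edgeR adjusted p = 0.195), and Relt, on the other side beyond Arhgef17, −0.98 (edgeR adjusted p = 0.0341). Atg16l2, next to Fchsd2, had a log2 FC of 1.02 (edgeR adjusted p = 0.0451) and Fam168a, beyond Relt, −0.18. Stard10, a few genes away, had 3972.5 and 3644.5 normalized counts in wtPC12 and 3399.8 and 3870.3 in hrPC12, with overlap.

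On chromosome 2, P2ry14, P2ry13 and P2ry12 lie close together within the span of Med12l, with 0 protein-coding genes between P2ry13 and P2ry12. All 3 were at most at 2 reads per library in hrPC12. Gpr171, a receptor gene of the same row, had 2 reads in each wtPC12 library and 0 in both hrPC12 libraries, so that no difference was detectable at this depth. Igsf10, the next gene on the side of P2ry12, had 141 and 131 normalized counts in wtPC12 and 49.9 and 48.6 in hrPC12 and did not pass the thresholds (log2 FC −1.46, edgeR adjusted p = 0.0245). Med12l was not matched by symbol, and reads of its transcripts could not be told apart from those of the 3 genes.

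**Figure D3:**
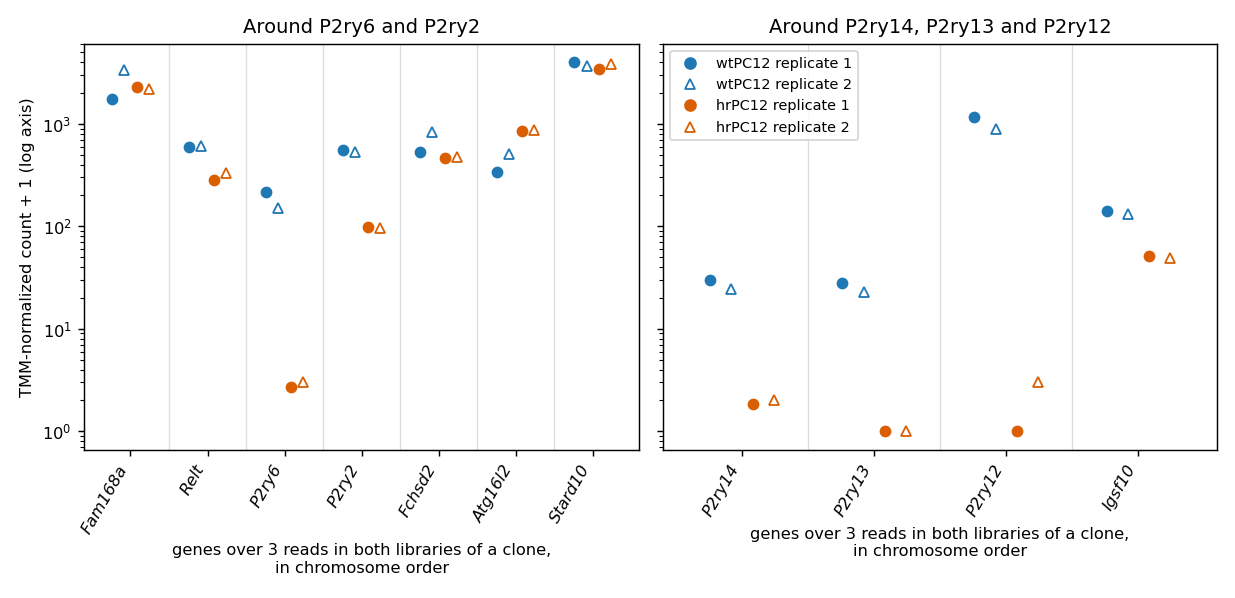
TMM-normalized count plus 1 (log axis) of genes around P2ry6 and P2ry2 (left) and around P2ry14, P2ry13 and P2ry12 (right), in chromosome order, for genes with more than 3 reads in both libraries of a clone, blue for wtPC12 and orange for hrPC12, filled circles for replicate 1 and open triangles for replicate 2. The hrPC12 points drop at the receptor genes and lie close to the wtPC12 points at Stard10 on the left, while Igsf10 on the right shows a smaller gap.

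P2rx4 and P2rx7 follow each other on chromosome 12 with 0 protein-coding genes between them, and P2rx7 had 0 reads where P2rx4 had 704 to 1323 per library. The span of P2rx4 overlaps that of Camkk2, whose log2 FC was −0.24 (edgeR adjusted p = 0.575). Rnf34, the next gene but one, was lower past both thresholds (log2 FC −2.50, edgeR adjusted p = 0.00153). Adora1 overlaps Mybph, which had 8.14 and 12.4 normalized counts in wtPC12 and 50.8 and 56.7 in hrPC12, and their reads could not be told apart where they overlap. Such overlaps were taken from the current annotation, and those of the annotation used for counting are not given in the sources used here.

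Genes that release and remove the ligands were followed as a list as well, and were not compared with the receptor genes by a test. Of 21 genes that release ATP, break it down or take up adenosine, 12 were tested. Of these 1, Slc29a1, was lower past both thresholds and 0 were higher. The share lower was 8.33%, near the 5.46% of all tested genes. The median of their log2 FC values was −0.71. At an unadjusted p under 0.05 in edgeR's test, 6 were lower and 2 higher, beside 3111 lower and 3246 higher of all 13726 tested genes. DESeq2 also called 1 lower and 0 higher, beside 911 and 877 of all tested genes. Slc29a1, the gene of the equilibrative nucleoside transporter ENT1, through which adenosine enters cells, had 4258 and 3444 normalized counts in wtPC12 and 448 and 505 in hrPC12. Both hrPC12 libraries were far below, with a log2 FC of −3.01 (SE 0.21, edgeR adjusted p = 0.000981). The related transporter genes Slc29a2 (log2 FC −0.56) and Slc29a3 (−0.26) did not pass.

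Entpd3 and Entpd2, which code for ectonucleotidases that break down extracellular ATP, had log2 FC of −1.49 and −1.21. Entpd3 fell, with 1302 and 1074 normalized counts in wtPC12 and 433 and 416 in hrPC12 and an adjusted p of 0.00855 from edgeR's test, while Entpd2 had an adjusted p of 0.0170. Slc17a9, the gene of the transporter that loads ATP into vesicles, had 904 and 792 normalized counts in wtPC12 and 1868 and 2036 in hrPC12, both hrPC12 libraries being higher (log2 FC 1.20, SE 0.19, edgeR adjusted p = 0.0108). Adk, the gene of adenosine kinase and the gene of the list with the highest mean count, had 3006 and 2675 normalized counts in wtPC12 and 3874 and 4448 in hrPC12 (log2 FC 0.55, edgeR adjusted p = 0.0659). Nt5e, the enzyme that forms adenosine from AMP, had 135 and 184 in wtPC12 and 86.3 and 157 in hrPC12, and the clones overlapped.

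Of 21 genes of G proteins and effectors through which these receptors act, 15 were tested. Of these 2, Plcb4 and Gnao1, were lower past both thresholds, or 13.3% beside 5.46% of all tested genes. The median of the log2 FC values was −0.50. None was higher past both thresholds in edgeR's test or in DESeq2. At an unadjusted p under 0.05 in edgeR's test, 6 were lower and 0 higher, beside 3111 and 3246 of all 13726 tested genes. Plcb4, a phospholipase C gene, had 1605 and 2129 normalized counts in wtPC12 and 367 and 305 in hrPC12 (log2 FC −2.48, SE 0.25, edgeR adjusted p = 0.00276). Plcb3, a related gene, fell from 4617 and 4814 to 1808 and 1800.1, with a log2 FC of −1.39 (SE 0.16, edgeR adjusted p = 0.0038). Gnao1, which codes for a G protein subunit abundant in neurons, had 2031 and 3334 normalized counts in wtPC12 and 593 and 499 in hrPC12 (log2 FC −2.30, SE 0.31, edgeR adjusted p = 0.00615). Its log2 FC was −1.89 without wtPC12 replicate 2, where it did not pass.

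Of the genes of the inhibitory G protein subunits, to which A1 and P2Y12 receptors couple, Gnao1 was thus lower and Gnai1, Gnai2 and Gnai3 did not pass. Gnai1 had 1171 and 1464 normalized counts in wtPC12 and 1406 and 881 in hrPC12, with overlap (log2 FC −0.20, SE 0.30). Gnai2 had 15585 and 14765 normalized counts in wtPC12 and 13780.2 and 15785 in hrPC12, with overlap (log2 FC −0.04, SE 0.18). Its sign turned with library totals alone (0.03). Gnai3 had 7443 and 6714 in wtPC12 and 8811 and 9314 in hrPC12 (log2 FC 0.36, edgeR adjusted p = 0.155). Of the adenylyl cyclases, on which Adora2a acts, Adcy6 had 4124 and 5965 in wtPC12 and 3258 and 3217 in hrPC12, and did not pass (log2 FC −0.64, edgeR adjusted p = 0.0865). Gnas, the gene of the stimulatory G protein subunit, was not matched by symbol.

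**Figure D4:**
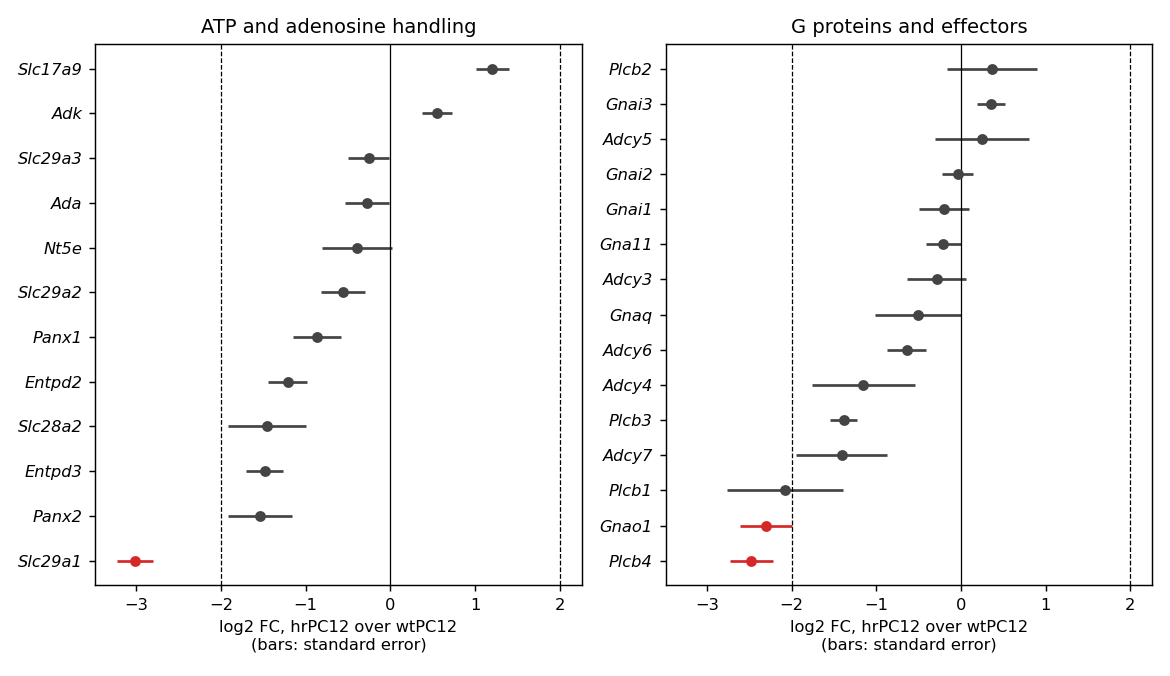
Log2 FC (hrPC12 over wtPC12) of the tested genes of ATP and adenosine handling (left) and of G proteins and effectors (right), with bars for the standard error; red points passed both thresholds and dashed lines mark a log2 FC of 2. Slc29a1 (−3.01) stands apart on the left, Plcb4 (−2.48) and Gnao1 (−2.30) are lowest on the right, next to Plcb1 (−2.07), which did not pass, and no gene lies beyond 2 on the side higher in hrPC12.

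For Adora2a and P2rx2, the tested genes with the most similar levels in the 4 libraries were sought, by the Euclidean distance of log2(normalized count + 1). Nearest to Adora2a were Arnt2 (distance 0.357), Ina (0.45) and Slc7a8 (0.608). Arnt2 had 8766 and 10916 normalized counts in wtPC12 and 653 and 640.5 in hrPC12. Nearest to P2rx2 were Unc79 (1.18), Myt1 (1.24) and Susd4 (1.25), each at larger distance than the neighbours of Adora2a. With 2 clones this likeness says that a gene has similar counts in each clone and no more.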

How the data were processed

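The authors aligned paired-end reads of 2 wtPC12 and 2 hrPC12 libraries to the rat genome (rn4) with TopHat2 (version 2.0.4) and counted them on genes with HTSeq (0.5.3), per the labels. The deposited values are raw read counts per gene, and the 5 closing totals of reads on no single gene were left out. Reads on genes made up 37.9 to 41.3% of each library's total. A second deposited table, with the authors' DESeq means, fold changes and p values, was not used.

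Counts were normalized with TMM factors and compared in R 4.3.3 with edgeR 4.0.16 (glmQLFit with the legacy option, glmQLFTest), Benjamini-Hochberg adjustment covering every tested gene, where the study used DESeq. A gene was tested if its mean normalized count reached 5 and each clone had reads of it. Standard errors are the unshrunken log2 FC divided by the square root of F. Counts were not scaled to gene length. Where counts of different genes were set side by side, as for the nearest genes or the highest mean count, they do not give relative expression levels. With 2 libraries per clone a 2-sided exact permutation test cannot give a p under 0.333. Scripts were tested on simulated data.

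The genes of the set and the lists were chosen with earlier results of these data known. Named are Rest, the set, the other purine receptors, genes of the other lists past both thresholds or with the most counts, markers of the cell type and the 3 nearest genes, and some more chosen after their values were seen. Gene order was taken from RefSeq (GRCr8), in which 65.1% of the tested genes were placed by symbol. Of 10 chromaffin markers 7 were tested and 5 were lower, 0 higher, past both thresholds. Of 12 leukocyte markers 3 were tested and 1, Cd14, was higher. Over all tested genes 5.46% were lower and 4.84% higher past both thresholds. Alternatives were RLE factors, library totals, 2 other filters, DESeq2 1.42.0, a prior count of 2, glmTreat, an adjusted p under 0.05, the legacy option off and each library left out.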

Additional observations from a re-analysis of the deposited data

How the results depend on the processing

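The 4 calls of Adora2a, P2rx2, P2ry2 and P2ry12 held with library totals alone, RLE factors and filterByExpr. They also held with no filter but 1 read, DESeq2 and the legacy option off. An adjusted p under 0.05 only loosens the limit of the main fit, so no call could be lost by it. With glmTreat 3 held, and P2ry2 (log2 FC −2.50) did not pass. With each library left out, in fits that take the lone library to vary like the other clone's, log2 FC ranged from −4.17 to −3.97 for Adora2a, −8.24 to −7.58 for P2rx2, −2.55 to −2.50 for P2ry2 and −13.04 to −8.91 for P2ry12, and none of the 4 passed without wtPC12 replicate 2, where edgeR's smallest adjusted p over all genes was 0.0130 and 3583 genes lower and 3359 higher had an unadjusted p under 0.05 (DESeq2 called 734 and 972). The calls thus ranged from 0 to 4 for the set, from 0 to 3 (lower) and 0 to 1 (higher) for the other purine receptors, from 0 to 2 (lower) for ligand handling and from 0 to 2 (lower) for G proteins and effectors, and over all genes from 0 to 920 lower and from 0 to 957 higher. Without wtPC12 replicate 2, P2rx5, P2ry6, P2ry14, Slc29a1, Plcb4 and Gnao1 did not pass either, as was so for every tested gene. P2ry14 also did not pass without wtPC12 replicate 1 or with glmTreat. Over all genes, glmTreat gave 353 lower and 321 higher, every gene with a read 1127 higher, and an adjusted p under 0.05 gave 1088 higher, against 749 lower and 665 higher. glmTreat left 1 lower and 0 higher of the other purine receptors and 0 of the G proteins and effectors. Every gene with a read, and filterByExpr, gave 1 higher of ligand handling. Among other genes, none of them called, the sign turned for P2ry4 (−0.38, up to 0.74) and Plcb2 (−0.01, up to 0.84) without wtPC12 replicate 1, Gnaq (0.46, down to −1.11) without wtPC12 replicate 2, Gnai2 with library totals (0.03) and without hrPC12 replicate 1 (0.06, down to −0.18 with a library left out), Gnai1 (0.05, down to −0.58) and Adcy3 (0.03, down to −0.78) without hrPC12 replicate 2, and Adcy5 without wtPC12 replicate 1 (−0.17) or hrPC12 replicate 1 (−0.37, up to 0.77 with a library left out). The cause was not tested. No paired analysis was possible because the labels give the libraries of the clones no shared numbers, and the replicate numbers used here follow the accession order and only name a library. Depth limits P2ry1, P2rx7, P2ry10 and Adora3, for which no difference was detectable.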

Other observations

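Some genes of the ligand handling list had reads in 1 clone only and were left out of the test. Enpp3, the gene of a surface enzyme that hydrolyses nucleotides, had 0 reads in both wtPC12 libraries and 24 and 18 in hrPC12, at least 5.86-fold higher with 3 reads in each wtPC12 library. When every gene with at least 1 read was tested, its adjusted p was 0.00475 in edgeR's quasi-likelihood test. Alpl, the gene of alkaline phosphatase, had 6 and 9 reads in wtPC12 and 0 in both hrPC12 libraries, at least 2.91-fold lower, and an adjusted p of 0.0251 in the same fit. Acpp, an acid phosphatase gene that also forms adenosine, had 1 read in each wtPC12 library and 9 and 4 in hrPC12, a ratio of 5.48 with a 95% interval of 1.24 to 50.1 for counting error.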
